A study of Rattus norvegicus with 9 samples.

Results

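Ileum with FDG decreased was set against ileum with FDG increased of rats that had undergone Roux-en-Y gastric bypass (RYGB) 1 month earlier, with libraries paired by replicate number. The genes described are those with a mean of at least 1 FPKM (fragments mapped to a gene, scaled to its transcript length and to the size of the library) over the 6 libraries of this comparison. They were 10739 of the 17120 genes whose symbol could be used; 2266 genes were listed at 0 in all 6 libraries. By column title the 6 libraries belong to 6 of the series' 9 samples, and the other samples are 3 of ileum after a sham operation.

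All rats were of the Otsuka Long-Evans Tokushima fatty strain, an inbred model of obesity with late diabetes that lacks a working receptor for the gut hormone cholecystokinin. Both groups compared had the Roux-en-Y operation, and each has 3 samples of total RNA from the small intestine (ileum). FDG is taken here as fluorodeoxyglucose, the radioactive glucose analogue of positron emission tomography. The labels neither spell it out nor say in which tissue, or by what measure, it was decreased or increased. Nor do they name separate animals for the replicates, so that a p-value here reflects only how far these samples lie apart, which may be technical. The series asks what gastric bypass does to the small intestine.

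In Roux-en-Y bypass a small stomach pouch is joined to the jejunum, and food skips the duodenum and reaches the distal intestine sooner. Fluorodeoxyglucose enters cells through glucose transporters and is trapped once a hexokinase has phosphorylated it, a step that glucose-6-phosphatase can reverse. Along the intestine, genes such as the transcription factor Gata4 and lactase mark the upper part, whereas bile acid uptake and the receptor for vitamin B12 mark the ileum. Immediate-early genes are switched on within minutes of a growth factor, injury or stress signal, and the proteins that switch the signal off again are induced with them.

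The sum of FPKM over genes lay between 476044 and 848245 per library, and 10332 to 10806 genes reached 1 FPKM. Read depth is unknown, since the files hold no counts. The labels place both libraries of pair 1 in lane 7 and both of pair 2 in lane 4. In pair 3 the FDG-decreased library came from lane 5 and the FDG-increased library from lane 4. By those labels the differences within pairs 1 and 2 are within-lane values. In pair 3 both libraries held less RNA of immune cells, with a mean log2 level of T and NK cell markers of 1.11 and 0.99, against 2.63 to 3.14 in the other 4 libraries. Fabp6, the defining bile acid carrier of ileum, was abundant in all 6 libraries (5399 to 22498 FPKM), while Gata4 of the upper intestine ranged from 0 to 26.4 FPKM. Sham levels quoted below come from a separately scaled table and enter no test. That table holds FDG-increased libraries 1 and 2 of this comparison under the numbers 2 and 3, times 1.023 and 1.0204. Its remaining FDG-increased library is not one of those described here. Together the tables hold more FDG-increased libraries than labelled samples, so which sample, lane and pair number an FDG-increased column belongs to is taken from its title in this comparison's table and is not established. Sham library 1 went against its ileum label, with 22.6 FPKM of Fabp6 against 8375 and 11347 FPKM in the other two.

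Of the 10739 genes, 122 (1.14%) passed an adjusted p of 0.05 in limma with the replicate number as a block and Benjamini-Hochberg adjustment. In FDG-decreased ileum 48 of them rose (0.447%) and 74 fell (0.689%). Rose and fell name the direction against FDG-increased ileum and not a change from sham. Differences are FDG decreased minus FDG increased on the log2(FPKM + 1) scale, on which the change of a gene near 0 FPKM comes out too small. The called genes that rose did so by 0.66 to 2.80, and the mean differences of those that fell ran from -0.67 to -3.51. Over all genes tested the mean difference was above 0 in 55.2% and below 0 in 44.8%. All 122 had the same direction in all 3 pairs, as 1842 genes did upwards (17.2%) and 1360 downwards (12.7%). A paired test favours genes whose pairs agree, so the shared direction of the called genes comes largely from their selection. A difference of at least 1 in the same direction in all 3 pairs was seen in 17 genes upwards (0.158%) and 21 downwards (0.196%), and 31 of these 38 genes were called. By unadjusted p, 517 genes were higher (4.81%) and 505 lower (4.7%). The calls rest on the pairing: without the block, limma with Benjamini-Hochberg adjustment called 0 genes, with a smallest adjusted p of 0.305 and 110 genes at an unadjusted p under 0.05. The count also depended on single pairs: it was 39 without pair 1, 370 without pair 2 and 345 without pair 3. Of the 122 genes 29, 114 and 121 were among those counts. On simulated data the same fit called unchanged genes beyond the nominal share, so part of the 122 calls may be false.

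Pairs differed from each other more than the FDG groups did. The SD between the 3 pair means had a median over genes of 0.41, against a median size of the FDG difference of 0.12, and it was the larger value in 9149 genes (85.2%). Within pairs, 98, 78 and 116 genes were higher by at least 1 in pairs 1 to 3, and 103, 174 and 98 were lower by at least 1. Across genes, the differences of pairs 1 and 2 correlated at 0.30, those of pairs 1 and 3 at 0.37 and those of pairs 2 and 3 at 0.17. Such correlations describe genes of 6 libraries and are not over independent replicates. In the plot of one pair against another, called genes lie in the quadrants where both pairs have the same sign, which follows from their shared direction. Groups that do not overlap were less common than a shared direction: all FDG-decreased libraries lay above all FDG-increased libraries in 209 genes (1.95%) and below them in 135 (1.26%). Of the called genes, 18 of the 48 that rose and 40 of the 74 that fell had such groups.

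**Figure D1:**
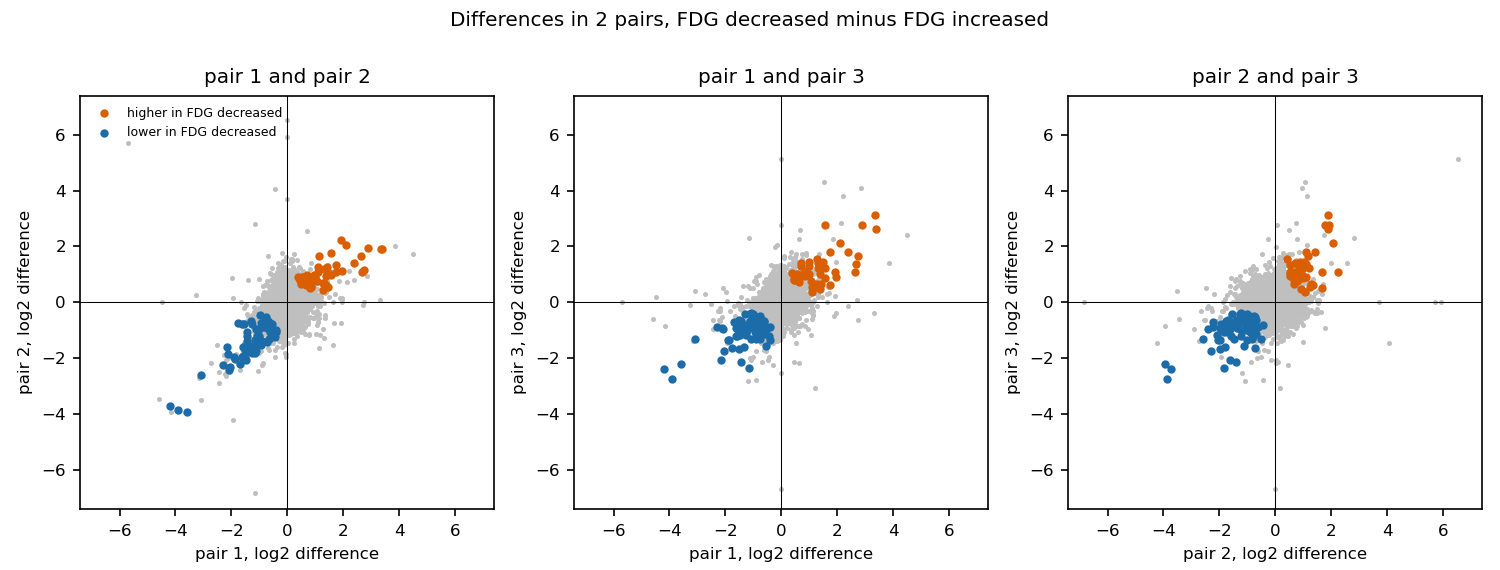
Log2 difference of FPKM + 1, FDG decreased minus FDG increased, in 1 pair (x axis) against another pair (y axis); each point is 1 of 10739 genes, and coloured points are the 122 called genes, orange where higher and blue where lower. Called genes share their sign in every panel, which the paired test favours. The largest fall, that of Atf3, lies at -3.91, -3.86 and -2.75 in pairs 1 to 3.

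Immediate-early genes and the inhibitors induced with them were lower in FDG-decreased ileum. Of 42 such genes tested, from 3 lists, 40 had a mean difference below 0, 36 were lower in all 3 pairs, where 12.7% of all genes were, and 17 fell by the test, where 0.689% of all genes did. None rose. The median difference over the 42 was -0.90, beside 0.02 over all genes tested.

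The first list held AP-1 subunits and Atf3, transcription factors that bind DNA as pairs and are made after stress or growth signals. Of 8 tested, 5 fell: Atf3, Fosb, Jun, Jund and Junb. Atf3, a repressor and activator induced by cell stress, stood at 8.82, 5.46 and 2.77 FPKM with FDG decreased and 147, 93.1 and 24.4 FPKM with FDG increased. Every FDG-increased library lay above every FDG-decreased library, and the pair differences were -3.91, -3.86 and -2.75. Atf3 fell by 3.51 (SE 0.227, adjusted p = 0.000366, limma with Benjamini-Hochberg), a 15.5-fold difference of the group means. In sham ileum it stood at 9.60, 3.81 and 7.69 FPKM. Fosb, a Fos-type subunit, stood at 0.887, 0.491 and 1.18 FPKM with FDG decreased and 33.9, 18.6 and 10.5 FPKM with FDG increased. The groups did not overlap, and in the FDG-decreased libraries Fosb was at most 1.18 FPKM. Fosb fell by 3.44 (SE 0.329, adjusted p = 0.00736, limma with Benjamini-Hochberg), a 24.7-fold difference of means. Fos itself, the partner of Jun in the classical AP-1 pair, stood at 34.5, 12.4 and 10.98 FPKM with FDG decreased and 313, 87.5 and 30.3 FPKM with FDG increased. It was lower in each pair, but by unequal amounts (-3.14, -2.72 and -1.38), and did not pass (adjusted p = 0.0721, limma with Benjamini-Hochberg). Jun, Jund and Junb, the Jun-type subunits, fell by 1.11, 0.98 and 0.90. Jun stood at 52.2, 26.1 and 23.8 FPKM with FDG decreased and 142, 61.9 and 38.9 FPKM with FDG increased. The groups overlapped, since FDG-decreased library 1 lay above FDG-increased library 3, and the same held for Jund and Junb. Fosl2 and Batf, further members, differed by -0.05 and -0.22 and had no common direction over the pairs.

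The second list held Egr and Nr4a transcription factors with other immediate-early genes. Of 18 tested, 17 were lower in all 3 pairs and 7 fell: Egr1, Maff, Egr2, Btg2, Ier3, Klf6 and Klf4. Egr1, a zinc finger factor driven by serum response factor, stood at 20.0, 11.2 and 3.71 FPKM with FDG decreased and 91.4, 36.3 and 18.7 FPKM with FDG increased. FDG-decreased library 1, at 20.0 FPKM, lay just above FDG-increased library 3, at 18.7 FPKM, so the groups touched although each pair differed (-2.14, -1.62 and -2.06). Egr1 fell by 1.94 (SE 0.154, adjusted p = 0.000318, limma with Benjamini-Hochberg). Its sham levels were 6.81, 10.5 and 12.4 FPKM. Maff, a small Maf protein, stood at 7.27, 3.84 and 4.29 FPKM with FDG decreased and 25.5, 21.6 and 7.55 FPKM with FDG increased. Egr2, a relative of Egr1, stood at 0.655, 0.778 and 0.148 FPKM with FDG decreased and 4.13, 2.08 and 1.66 FPKM with FDG increased. Neither overlapped between groups. Btg2, which restrains cell division, and Klf4, a factor of differentiating epithelium, also had groups apart and fell by 0.94 and 0.76. The nuclear receptor Nr4a1 stood at 2.01, 1.53 and 2.86 FPKM with FDG decreased and 53.1, 37.9 and 5.99 FPKM with FDG increased. Its groups did not overlap, yet the pair differences of -4.17, -3.94 and -0.86 varied so much that it did not pass (adjusted p = 0.601, limma with Benjamini-Hochberg). Nr4a3 was at 1.09, 1.30 and 0.722 FPKM with FDG decreased and 10.4, 16.1 and 2.33 FPKM with FDG increased (adjusted p = 0.067, limma with Benjamini-Hochberg). Ctgf and Cyr61, secreted matrix proteins of the same early wave, followed pairs 1 and 2 and hardly pair 3. Ctgf stood at 18.3, 22.0 and 12.5 FPKM with FDG decreased and 87.0, 143 and 15.9 FPKM with FDG increased. Myc, with a mean difference of 0.19, was the 1 member not lower.

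The third list held feedback inhibitors, which end MAP kinase, NF-kappaB and JAK-STAT signalling. Of 16 tested, 15 had a mean below 0, 13 were lower in all 3 pairs and 5 fell: Socs3, Dusp1, Errfi1, Zfp36 and Dusp10. Socs3, an inhibitor of cytokine receptors, stood at 9.46, 4.04 and 4.33 FPKM with FDG decreased and 22.4, 16.8 and 26.3 FPKM with FDG increased. The groups did not overlap, and the gap was widest in pair 3 (-1.16, -1.82 and -2.36). It fell by 1.78 (SE 0.213, adjusted p = 0.00555, limma with Benjamini-Hochberg). Dusp1, a phosphatase that inactivates MAP kinases, stood at 34.6, 17.6 and 8.74 FPKM with FDG decreased and 152, 66.2 and 17.6 FPKM with FDG increased and fell by 1.63. Errfi1, which inhibits the EGF receptor, stood at 18.5, 24.1 and 21.0 FPKM with FDG decreased and 51.9, 51.5 and 43.0 FPKM with FDG increased. The groups were far apart, and Errfi1 fell by 1.17. Zfp36, which destabilizes cytokine mRNAs, and Dusp10, another MAP kinase phosphatase, fell by 1.02 and 0.93. Sik1 (-1.64), Dusp5 (-0.84) and Dusp6 (-0.70) were lower in each pair and did not pass. The Spred inhibitors differed by 0.02 and -0.03.

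Promoters of 2 of these genes are shown because they hold motifs well known from early induction. The sequences are RefSeq's for the rat build GRCr8, 150 bases that end at the base before the gene's start, in the direction of transcription. Capitals mark CArG boxes, which serum response factor binds, in Egr1 (chr18:26736928-26737077, plus strand) and a cAMP response element in Dusp1 (chr10:17184703-17184852, plus strand).
Egr1: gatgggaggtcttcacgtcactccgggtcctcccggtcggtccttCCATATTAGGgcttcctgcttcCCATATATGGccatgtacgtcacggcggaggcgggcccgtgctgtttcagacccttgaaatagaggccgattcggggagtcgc
Dusp1: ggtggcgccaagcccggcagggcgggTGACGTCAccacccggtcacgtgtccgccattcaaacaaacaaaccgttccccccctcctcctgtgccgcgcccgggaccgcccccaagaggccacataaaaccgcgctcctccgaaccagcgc
The CArG boxes of Egr1 end 95 and 73 bases before the start, and the element of Dusp1 ends 116 bases before it. Motifs were searched on both strands in the 250 bases before the start of 24206 genes, and 84 of the 122 called genes had such an entry. CArG boxes were in 4 of the 14 early genes that fell and had a promoter (28.6%): Egr1, Egr2, Klf6 and Zfp36. They were in 5 of 50 of all the genes that fell, 0 of 34 that rose and 1.51% of all promoters. The cAMP response element TGACGTCA was in 4 of the same 14 (Btg2, Dusp1, Jund and Maff), in 7 of 50 genes that fell (14.0%), in 2 of 34 that rose (5.88%), in 3.02% of tested genes and in 1.72% of all promoters. The AP-1 site TGACTCA, a different set of letters that cannot overlap it, was in 0 of the 14 early genes, 4 of 50 that fell (8.0%), 0 of 34 that rose and 3.97% of all promoters. A match describes these letters only.

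Single genes of EGF receptor signalling, clotting and matrix also fell. Of 10 EGF ligands and receptors tested, 1 fell, where 0.689% of all genes did, and the median was -0.20. It was Hbegf, a ligand cut from the cell surface, at 2.58, 3.53 and 4.05 FPKM with FDG decreased and 29.7, 26.4 and 11.4 FPKM with FDG increased. Its groups were apart and the difference was -2.33 (SE 0.330, adjusted p = 0.0354, limma with Benjamini-Hochberg). The ligands Ereg and Areg were lower in each pair but mostly in pairs 1 and 2, at -2.22, -2.55 and -0.63 for Ereg and -1.68, -2.42 and -0.12 for Areg, and did not pass. The receptors Egfr, Erbb2 and Erbb3 differed by -0.10, 0.21 and 0.36. F3, tissue factor, fell by 1.35, Plaur, the urokinase receptor, by 1.08, and Thbs1, a matrix protein of wounds, by 1.28. These 3 called genes were chosen after their values were seen.

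Further genes among the 15 largest falls were counted in no list. Rgs1, which shortens signalling by chemokine receptors, stood at 14.9, 30.9 and 7.45 FPKM with FDG decreased and 65.0, 156 and 27.3 FPKM with FDG increased. Its FDG-decreased library 2, at 30.9 FPKM, exceeded FDG-increased library 3, at 27.3 FPKM, but every pair fell by about as much (-2.06, -2.30 and -1.75, adjusted p = 0.000318, limma with Benjamini-Hochberg). Gem, a small GTPase, stood at 7.79, 14.6 and 8.30 FPKM with FDG decreased and 36.6, 82.2 and 17.0 FPKM with FDG increased. Trib1, a pseudokinase, stood at 21.9, 15.01 and 12.6 FPKM with FDG decreased and 82.3, 64.4 and 33.7 FPKM with FDG increased. Both had groups apart. Tnfrsf12a, the receptor for the cytokine TWEAK, stood at 2.31, 1.86 and 2.12 FPKM with FDG decreased and 7.39, 8.87 and 8.53 FPKM with FDG increased, with little spread inside either group. Apold1, an early gene of endothelium, Tppp, a tubulin-binding protein, and Ca1, a carbonic anhydrase, fell by 1.80, 1.73 and 1.75, and their groups did not overlap. Further called genes, chosen after their values were seen, were Crem, a factor of the cAMP pathway (-1.38), Ppp1r15a, which restarts translation after stress (-1.38), Socs1 (-1.43), a relative of Socs3, and Epha2, an ephrin receptor (-1.27). The plot of levels by library and pair shows 14 of the 15 largest falls and the 15 largest rises.

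**Figure D2:**
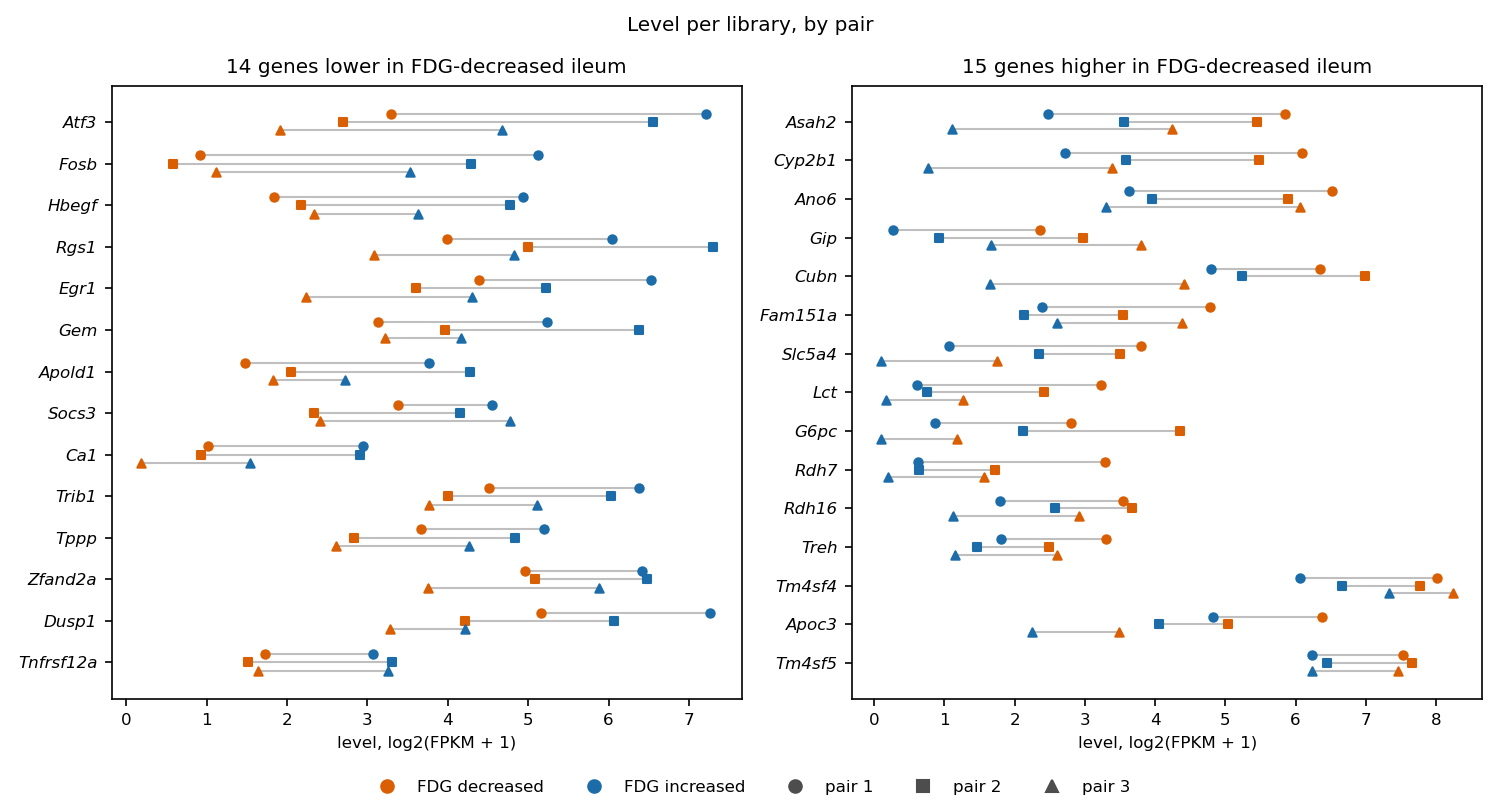
Level per library as log2(FPKM + 1) for 14 of the 15 called genes with the largest fall (left) and the 15 with the largest rise (right) in FDG-decreased ileum; orange is FDG decreased, blue FDG increased, marker shapes are pairs 1 to 3, and grey lines join the libraries of a pair. Each of the 29 genes has all 3 lines in the same direction, which the paired test favours. The position of a pair along the axis varies from gene to gene.

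Markers of cell types that could carry these early genes gave the following values. The list of inflammatory cytokines and chemokines had 11 of 12 members below 0, where 44.8% of all genes were, and a median of -0.24. Of its members, 4 were lower in all pairs, where 12.7% of all genes were, and 0 were called. Outside that list, Il12a, a subunit of interleukin 12 and 35, fell by 1.10 and the chemokine Ccl6 fell by 0.92; both were chosen after their values were seen. Macrophage and dendritic cell markers had a median of -0.14 (pairs -0.08, -0.67 and 0.24), smooth muscle -0.15, endothelium 0.15, fibroblasts -0.04 and T and NK cells -0.01, with 0 called in each. Of these, the macrophage, fibroblast, T and NK cell and cytokine medians turned their sign in at least 1 of 10 alternatives. The mean log2 level of the 17 macrophage markers was 3.84, 3.74 and 2.47 with FDG decreased and 3.77, 4.33 and 2.20 with FDG increased. For the 14 endothelial markers it was 3.36, 3.48 and 3.38 and 3.31, 3.49 and 3.00, in that order. Their part in the result was not tested. In bulk tissue, fewer cells of a type and less RNA per cell cannot be told apart.

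Heat-shock genes, chaperones that refold damaged proteins, were also lower. Of 14 tested, 13 had a mean below 0, 10 were lower in all 3 pairs, where 12.7% of all genes were, and 5 fell, where 0.689% did: Cryab, Hspa1b, Hspb1, Bag3 and Dnajb1. The list had a median of -0.44, with -0.50, -0.39 and -0.69 in pairs 1 to 3. With lane as the block in place of the replicate number it was 0.06. In that fit the single library of lane 5, FDG-decreased library 3, does not enter the difference. Its partner, FDG-increased library 3, stays in lane 4 and is set against FDG-decreased library 2, so that value does not compare matched pairs. Cryab, a small chaperone, stood at 11.7, 10.7 and 11.1 FPKM with FDG decreased and 38.1, 44.6 and 21.8 FPKM with FDG increased. The groups did not overlap, and the FDG-decreased libraries differed from each other by about 1 FPKM. Hspb1, the small heat-shock protein 27, stood at 109, 81.3 and 38.4 FPKM with FDG decreased and 204, 152 and 81.2 FPKM with FDG increased, and fell by 0.95 (SE 0.128, adjusted p = 0.00595, limma with Benjamini-Hochberg). Bag3, a helper of Hsp70, stood at 35.7, 28.5 and 21.5 FPKM with FDG decreased and 62.8, 44.6 and 40.3 FPKM with FDG increased. Dnajb1, the Hsp40 that hands clients to Hsp70, stood at 72.9, 68.8 and 37.3 FPKM with FDG decreased and 124, 118 and 52.6 FPKM with FDG increased. The groups of Bag3 were apart and those of Dnajb1 overlapped. The inducible Hsp70 genes Hspa1a and Hspa1b are near-identical, so reads may be split between them. Hspa1b fell by 1.37, and Hspa1a, at 241, 2.27 and 37.5 FPKM with FDG decreased and 933, 60.1 and 105 FPKM with FDG increased, did not pass. The constitutive or mitochondrial members Hspa8, Hsp90ab1 and Hspd1 differed by -0.31, -0.12 and 0.09 and were not called. Outside the list, Zfand2a, a stress-induced partner of the proteasome, stood at 30.2, 32.9 and 12.5 FPKM with FDG decreased and 84.2, 88.1 and 58.0 FPKM with FDG increased, and all FDG-increased libraries lay well above the others. Dnajb4, another Hsp40, chosen after its values were seen, fell by 0.81. Genes of the unfolded protein response in the endoplasmic reticulum had a median of 0.05. Of 18 tested, 1 fell, the chaperone Dnajb9, by 0.78, and 12 had a mean above 0, where 55.2% of all genes had. Of 12 genes of the hypoxia response 9 had a mean below 0, where 44.8% of all genes had. In all 3 pairs 5 were lower, where 12.7% of all genes were, and the median was -0.31. By the test 1 fell, Adm, the vessel hormone adrenomedullin, by 0.83.

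The promoters of Hspb1 and Dnajb1 are shown because all 3 heat-shock genes that fell and had an entry hold the heat-shock element GAANNTTC, the core that heat shock factor binds. Capitals mark the element. The windows are chr12:26432302-26432451 and chr19:41431142-41431291 of GRCr8, both on the minus strand, printed in the direction of transcription.
Hspb1: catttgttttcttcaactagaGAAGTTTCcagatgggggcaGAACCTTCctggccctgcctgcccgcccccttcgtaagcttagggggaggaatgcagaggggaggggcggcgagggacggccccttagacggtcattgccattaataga
Dnajb1: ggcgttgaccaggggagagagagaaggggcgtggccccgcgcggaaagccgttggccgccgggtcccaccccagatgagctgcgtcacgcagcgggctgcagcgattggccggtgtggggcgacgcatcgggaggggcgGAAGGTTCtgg
The elements of Hspb1 end 121 and 101 bases before the start, and that of Dnajb1 ends 3 bases before it. Bag3 was the other of the 3. The element was in 8 of the 50 genes that fell (16.0%), in 3 of the 34 that rose (8.82%), in 5.03% of tested genes and in 6.94% of all promoters.

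Genes of glucose entry and trapping differed in both directions. Of 11 tested, 2 rose, where 0.447% of all genes did, 1 fell, where 0.689% did, and 7 were higher in all 3 pairs, where 17.2% were, with a median of 0.25. Hk2, the inducible hexokinase, stood at 14.7, 13.7 and 23.9 FPKM with FDG decreased and 37.8, 22.6 and 53.9 FPKM with FDG increased. It was lower in each FDG-decreased library than in its partner, although the library ranges overlapped. Hk2 fell by 1.04 (SE 0.157, adjusted p = 0.0111, limma with Benjamini-Hochberg), with pair differences of -1.30, -0.68 and -1.14. Hk1, the constitutive hexokinase, stood at 7.20, 7.30 and 8.23 FPKM with FDG decreased and 6.45, 6.80 and 7.68 FPKM with FDG increased and differed by 0.11. G6pc, the catalytic subunit of glucose-6-phosphatase, went the other way, with 5.98, 19.5 and 1.26 FPKM with FDG decreased and 0.819, 3.32 and 0.0686 FPKM with FDG increased. Each pair differed by more than 1, while the pairs themselves lay far apart, so the groups overlapped. G6pc rose by 1.76 (SE 0.225, adjusted p = 0.00555, limma with Benjamini-Hochberg). G6pc3, the form found in most tissues, had a difference of 0.00.

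Among the transporters, Slc2a2 (GLUT2), the exit of absorbed sugar towards the blood, stood at 46.5, 109.6 and 16.2 FPKM with FDG decreased and 9.15, 49.4 and 0.245 FPKM with FDG increased. Its pair differences of 2.23, 1.14 and 3.79 were all above 1 but unequal, and it did not pass (adjusted p = 0.437, limma with Benjamini-Hochberg). Slc5a4, a glucose-sensing relative of the sodium-glucose carrier, stood at 12.9, 10.3 and 2.36 FPKM with FDG decreased and 1.09, 4.07 and 0.0706 FPKM with FDG increased and rose by 1.85. It has near-identical copies, so its level is uncertain. The sodium-glucose carrier Slc5a1 (SGLT1) and the fructose carrier Slc2a5 (GLUT5) were higher in each pair, by means of 0.43 and 0.70, and did not pass. Slc2a1 (GLUT1), the entry route for blood glucose in most cells, stood at 6.29, 5.33 and 10.4 FPKM with FDG decreased and 9.53, 9.21 and 11.7 FPKM with FDG increased, lower in each pair with a mean of -0.46, and did not pass. Of 15 genes of glycolysis 0 were called, and the list had a median of 0.09. At an unadjusted p under 0.05, 2 were higher and 0 lower.

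Genes of the upper intestine were higher in FDG-decreased ileum in 8 of 10 tested. By the test 3 rose, Gip, Lct and Tm4sf4, where 0.447% of all genes did, and 6 were higher in all 3 pairs, where 17.2% of all genes were. The median was 0.83, with 1.43, 0.73 and 0.91 in pairs 1 to 3. Their mean log2 level was 3.91, 3.46 and 4.08 with FDG decreased and 2.56, 2.70 and 2.94 with FDG increased, without overlap. Gip, an incretin hormone of K cells, stood at 4.15, 6.89 and 12.9 FPKM with FDG decreased and 0.200, 0.887 and 2.17 FPKM with FDG increased. The groups did not overlap, and the 3 pairs rose almost equally (2.10, 2.06 and 2.14). Gip rose by 2.10 (SE 0.163, adjusted p = 0.000318, limma with Benjamini-Hochberg). Lct, lactase, stood at 8.40, 4.36 and 1.39 FPKM with FDG decreased and 0.521, 0.683 and 0.128 FPKM with FDG increased, and rose by 1.80. Tm4sf4, a membrane protein with 4 spans, stood at 257, 217 and 303 FPKM with FDG decreased and 65.8, 100.3 and 159.7 FPKM with FDG increased. Its relative Tm4sf5, in no list, stood at 184, 201 and 175 FPKM with FDG decreased and 73.9, 86.5 and 74.0 FPKM with FDG increased. Both had groups apart, and the 3 pairs of Tm4sf5 rose by 1.30, 1.20 and 1.23. Gata4 itself stood at 6.16, 1.01 and 26.4 FPKM with FDG decreased and 0, 0.0410 and 0.590 FPKM with FDG increased. Each FDG-decreased library exceeded all FDG-increased ones, but the pairs differed so much (2.84, 0.95 and 4.11) that it did not pass (adjusted p = 0.463, limma with Benjamini-Hochberg). Apoa4, an apolipoprotein made mostly in jejunum, stood at 638, 55.3 and 422 FPKM with FDG decreased and 43.0, 13.1 and 160.2 FPKM with FDG increased and did not pass either. Iron genes of the duodenum did not share the pattern: Cybrd1 differed by 0.12 and Slc40a1 by -0.11.

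Sham libraries differed in these genes too, as levels of a separately scaled table. Gip stood there at 81.2, 10.7 and 3.70 FPKM, Lct at 253, 8.60 and 0.317 and Tm4sf4 at 423, 89.9 and 28.2. The first sham library was the highest and the third the lowest in each. Of the 48 genes that rose, 41 had their highest sham level in sham library 1 (85.4%), as had 24 of the 74 that fell (32.4%) and 38.3% of all genes tested. The FDG-increased mean lay above all 3 sham libraries in 68 of the 74 that fell, and the FDG-decreased mean in 16. In the 48 that rose these counts were 3 and 10, and over all 10739 genes tested 3616 and 3639. Within the sham range lay the FDG-decreased mean of 55 of the 74 (74.3%) and the FDG-increased mean of 6 (8.11%). Over all genes tested these shares were 58.1% and 53.5%, and for the 48 that rose 77.1% and 72.9%. The 74 and the 48 genes were selected by the difference between these same FDG groups. That selection by itself moves such counts and shares apart, so they are no separate evidence of a departure from sham. Which stretch of ileum each library holds is not in the labels, and its part in the result was not tested.

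Genes that mark the ileum were not lower by the test. Of 7 tested, 5 had a mean below 0, 4 were lower in all 3 pairs, where 12.7% of all genes were, 0 fell and 1 rose. The median was -0.34, and 0.25 with lane as the block. The lane fit splits pair 3 and sets FDG-increased library 3 against FDG-decreased library 2, so the second value does not compare matched pairs. Fabp6, the bile acid carrier of ileal cells, stood at 15506, 17759 and 5399 FPKM with FDG decreased and 18537, 22498 and 7218 FPKM with FDG increased. It was abundant in all 6 libraries and differed by -0.34. Slc10a2, the bile acid importer, stood at 86.6, 581 and 23.2 FPKM with FDG decreased and 185, 567 and 101 FPKM with FDG increased, with pair differences of -1.09, 0.04 and -2.07. Pair 2 was level and pairs 1 and 3 were lower. The member that rose was Cubn, the receptor for vitamin B12 bound to intrinsic factor, at 80.3, 127 and 20.3 FPKM with FDG decreased and 26.8, 36.6 and 2.13 FPKM with FDG increased. Each pair rose (1.55, 1.76 and 2.77), and the low level of pair 3 in both groups made the ranges overlap. Cubn rose by 2.03 (SE 0.224, adjusted p = 0.00555, limma with Benjamini-Hochberg). In sham ileum Fabp6 stood at 22.6, 8375 and 11347 FPKM and Cubn at 73.2, 32.0 and 28.6 FPKM.

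**Figure D3:**
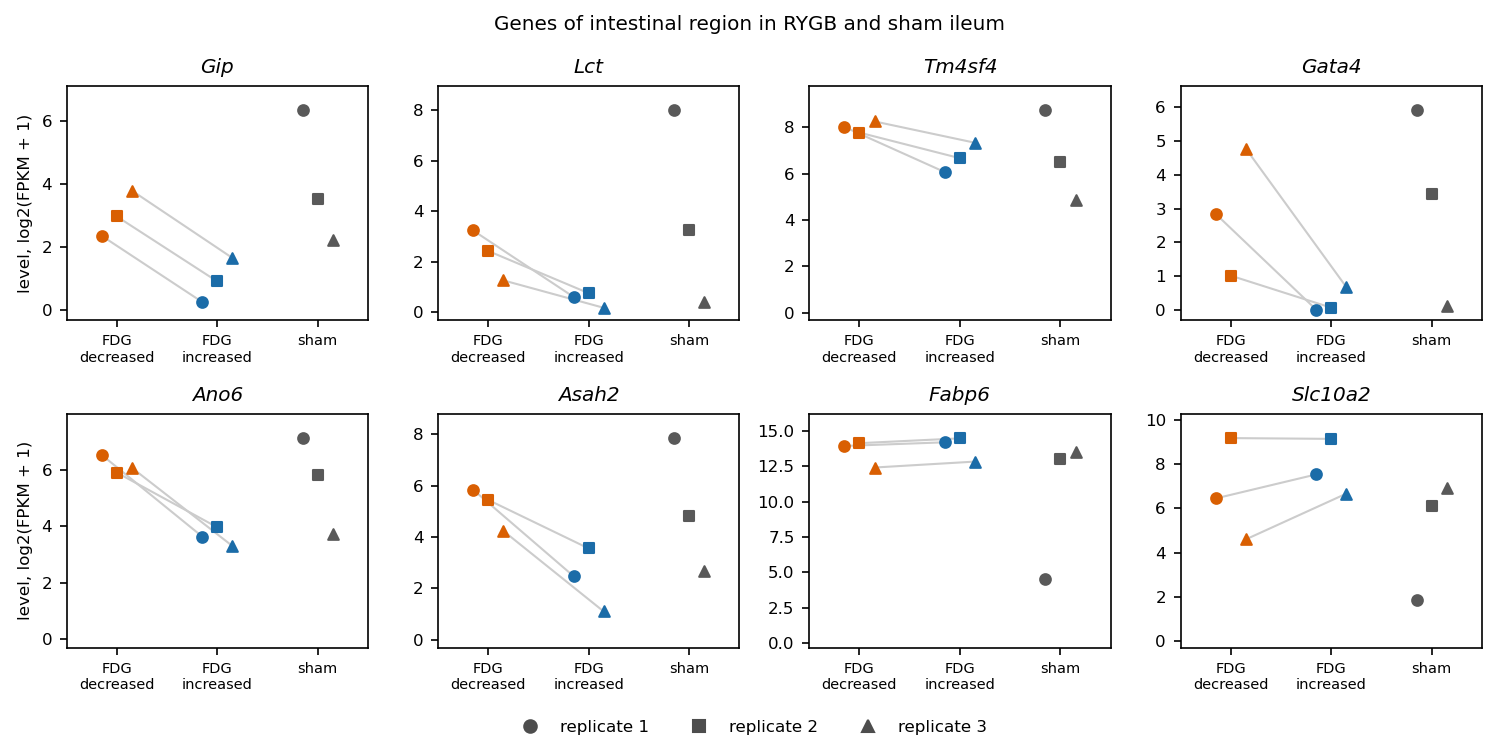
Level as log2(FPKM + 1) of 8 genes in FDG-decreased, FDG-increased and sham ileum; marker shapes are replicates 1 to 3, and grey lines join the libraries of a pair. Sham values come from a separately scaled table; sham library 1 is high for Gip, Lct, Gata4, Ano6 and Asah2 and low for Fabp6 and Slc10a2, while Fabp6 is abundant in all 6 bypass libraries.

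Enzymes and membrane proteins known from absorptive cells were among the 15 largest rises. Asah2, the neutral ceramidase of the brush border, stood at 56.5, 42.7 and 18.0 FPKM with FDG decreased and 4.57, 10.8 and 1.15 FPKM with FDG increased. The groups did not overlap, and Asah2 rose by 2.80 (SE 0.275, adjusted p = 0.00555, limma with Benjamini-Hochberg), a 7.10-fold difference of means. Its sham levels were 232, 27.5 and 5.35 FPKM. Enpp7, the sphingomyelinase that acts before it in the digestion of sphingolipids, stood at 33.7, 3.68 and 8.90 FPKM with FDG decreased and 0.548, 0.413 and 0.862 FPKM with FDG increased. Its groups were apart too, but the pair differences of 4.49, 1.73 and 2.41 were unequal and it did not pass (adjusted p = 0.315, limma with Benjamini-Hochberg). The other 5 genes of sphingolipid digestion were not called. Ano6, a calcium-activated channel that also moves phospholipids across the membrane, stood at 90.7, 58.5 and 65.9 FPKM with FDG decreased and 11.4, 14.5 and 8.82 FPKM with FDG increased. The groups lay far apart, with little spread inside either. Ano6 rose by 2.53 (SE 0.189, adjusted p = 0.000318, limma with Benjamini-Hochberg). It was the 1 gene called of 21 counted in ion transport, where 0.447% of all genes rose and 0.689% fell. The ion transport list had a median of 0.02. Carbonic anhydrase 1, which fell, has the symbol Ca1 in the data but Car1 in that list, so it was not counted there. Fam151a stood at 26.5, 10.7 and 19.9 FPKM with FDG decreased and 4.25, 3.39 and 5.06 FPKM with FDG increased, with groups apart.

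Cyp2b1, a cytochrome of drug metabolism with a near-identical neighbour, stood at 67.4, 43.7 and 9.50 FPKM with FDG decreased and 5.57, 11.04 and 0.704 FPKM with FDG increased. Every pair rose, by 3.38, 1.89 and 2.62, and pair 3 was low in both groups. It was the 1 gene called of 24 of drug metabolism, where 0.447% of all genes rose, and the median of that list was 0.13. Rdh7 and Rdh16, retinol and steroid dehydrogenases of a family with close copies, came next. Rdh7 stood at 8.80, 2.31 and 1.96 FPKM with FDG decreased and 0.546, 0.552 and 0.150 FPKM with FDG increased. Rdh16 stood at 10.7, 11.7 and 6.53 FPKM with FDG decreased and 2.46, 4.94 and 1.18 FPKM with FDG increased. Both had groups apart and rose by 1.71 and 1.55. Other enzymes that rose, chosen after their values were seen, were the esterase Ces2a (0.98), the mitochondrial malate dehydrogenase Mdh2 (0.76) and the cytochromes Cyp2j4 (0.86) and Cyp3a18 (0.81), which also have close copies. Ugt1a2, a glucuronosyltransferase with shared exons in its family, went the other way and fell by 1.08.

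Genes of sugar and fat absorption were higher in FDG-decreased ileum. Of 24 genes tested from 3 lists, 22 had a mean above 0, 21 were higher in all 3 pairs, where 17.2% of all genes were, and 6 rose, where 0.447% did. The median was 0.75. Of 4 brush-border disaccharidase and fructose genes all were higher in each pair and 2 rose, Lct and the trehalase Treh. Treh stood at 8.86, 4.59 and 5.07 FPKM with FDG decreased and 2.49, 1.76 and 1.21 FPKM with FDG increased, with groups apart. Si, sucrase-isomaltase, was far more abundant, at 1365, 6007 and 263 FPKM with FDG decreased and 1067, 3313 and 75.4 FPKM with FDG increased, and was not called (adjusted p = 0.175, limma with Benjamini-Hochberg). Of 9 genes of chylomicron assembly, the export of fat as lipoproteins, 8 were higher in each pair and 2 rose. Apoc3, which slows the clearance of triglycerides, stood at 81.8, 32.0 and 10.2 FPKM with FDG decreased and 27.3, 15.7 and 3.73 FPKM with FDG increased. The pair differences were 1.55, 0.98 and 1.24 while the ranges of the groups overlapped, and Apoc3 rose by 1.26 (SE 0.154, adjusted p = 0.00422, limma with Benjamini-Hochberg). Apob, the scaffold of the particle, stood at 920.5, 2212 and 339.6 FPKM with FDG decreased and 711, 1173 and 162 FPKM with FDG increased and rose by 0.78. Mttp, which loads fat onto Apob, was higher in each pair with a mean of 0.74 and did not pass.

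Of 11 genes of fatty acid uptake and triglyceride synthesis, 9 were higher in each pair, where 17.2% of all genes were. By the test 2 rose, where 0.447% of all genes did. Cd36, a fatty acid receptor, stood at 126, 348 and 72.0 FPKM with FDG decreased and 63.4, 190.5 and 34.8 FPKM with FDG increased. Its pair differences of 0.98, 0.87 and 1.03 were nearly equal over a wide range of levels, and it rose by 0.96 (SE 0.128, adjusted p = 0.0056, limma with Benjamini-Hochberg). Mogat2, which rebuilds triglycerides from monoglycerides, stood at 50.1, 30.9 and 20.0 FPKM with FDG decreased and 27.6, 18.7 and 8.86 FPKM with FDG increased and rose by 0.88. The fatty acid carriers Fabp1 and Fabp2 had means of 0.76 and 0.66 and did not pass. Pdk4, a kinase that turns cells from glucose to fat as fuel, was the 1 gene called of 17 of fatty acid oxidation, at 45.5, 87.9 and 23.1 FPKM with FDG decreased and 19.9, 27.1 and 16.1 FPKM with FDG increased, and rose by 1.10. Peptidases and amino acid transporters had list medians of 0.11 and 0.02, and both medians turned their sign in 1 of 10 alternatives. At an unadjusted p under 0.05, 4 of the 12 peptidases were higher and 1 lower, where 4.81% and 4.7% of all genes were. Of 12 peptidases 1 rose, Ace, the angiotensin-converting enzyme, at 176, 63.9 and 20.9 FPKM with FDG decreased and 59.2, 31.5 and 11.1 FPKM with FDG increased. Of 16 amino acid and peptide transporters 1 rose, the carrier Slc7a8, at 23.7, 31.7 and 37.2 FPKM with FDG decreased and 16.7, 16.8 and 18.2 FPKM with FDG increased.

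Markers of enterocytes, the absorptive cells, were higher in part. Fabp1, Fabp2, Apoa1 and Apoa4 are also members of the fat absorption lists, so these markers are not a separate set of genes. Of 12 tested, 9 were higher in each pair, where 17.2% of all genes were. By the test 1 rose, where 0.447% of all genes did, and the median was 0.44. Their mean log2 level was 10.27, 9.73 and 8.53 with FDG decreased and 9.56, 9.45 and 7.86 with FDG increased, so that each pair was higher and the group ranges overlapped. The structural markers Vil1 and Cdhr5 differed by 0.15 and -0.03, and Krt20, of cells at the villus tip, by -0.30. The part of enterocyte number in the result was not tested. The member that rose was Alpi, intestinal alkaline phosphatase, at 228, 123 and 72.0 FPKM with FDG decreased and 94.0, 91.1 and 24.1 FPKM with FDG increased, with a difference of 1.08 (SE 0.203, adjusted p = 0.0471, limma with Benjamini-Hochberg). Its promoter is shown because Alpi is the 1 called gene found with the HNF4 site CAAAGTCCA, here in capitals (chr9:95224781-95224930 of GRCr8, minus strand). HNF4 factors are known to drive enterocyte genes.
Alpi: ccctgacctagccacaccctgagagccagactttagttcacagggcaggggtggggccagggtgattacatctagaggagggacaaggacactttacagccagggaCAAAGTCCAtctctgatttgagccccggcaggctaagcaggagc
The site ends 35 bases before the start. It was in 1 of the 34 genes that rose and had a promoter (2.94%), 0 of 50 that fell and 0.343% of all promoters. The HNF1 site, searched as its full palindrome, was in 0 of the 24206 promoters, so that search says nothing of either group.

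Genes of cholesterol synthesis and uptake, which are under joint control by SREBP2, lay on the other side. Of 20 tested, 18 had a mean below 0, where 44.8% of all genes had, 11 were lower in all 3 pairs, where 12.7% were, and 1 fell, where 0.689% did, with a median of -0.26. Hmgcs1, an early enzyme of the pathway, stood at 58.6, 117 and 116 FPKM with FDG decreased and 103, 192 and 166 FPKM with FDG increased and fell by 0.68 (SE 0.131, adjusted p = 0.0382, limma with Benjamini-Hochberg). Insig1, which holds SREBP back in the endoplasmic reticulum, differed by -0.66, with groups apart, and did not pass. The list medians of pairs 1 to 3 were -0.49, -0.41 and -0.04, so that pair 3 was near level. Npc1l1, the importer of dietary cholesterol, stood at 57.3, 49.7 and 76.4 FPKM with FDG decreased and 44.2, 35.5 and 38.1 FPKM with FDG increased, higher in all FDG-decreased libraries, and did not pass.

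Of 9 Reg lectins and other defence genes of the epithelium tested, 8 had a mean below 0, where 44.8% of all genes had. By the test 1 fell, where 0.689% of all genes did, and the median was -0.40. Reg3g, a lectin that kills Gram-positive bacteria and has close relatives in the genome, stood at 1929, 2215 and 3063 FPKM with FDG decreased and 3705, 3744 and 6377 FPKM with FDG increased. All FDG-increased libraries were above all FDG-decreased ones, and it fell by 0.92 (SE 0.137, adjusted p = 0.0104, limma with Benjamini-Hochberg). Duoxa2, which matures the peroxide-making oxidase Duox2, stood at 2.99, 3.56 and 6.60 FPKM with FDG decreased and 8.17, 8.64 and 53.2 FPKM with FDG increased. It was lower by more than 1 in each pair, most of all in pair 3 (-1.20, -1.08 and -2.83), and did not pass. Paneth cell markers had a median of -0.17 and goblet cell markers -0.22, with 0 called of 9 and 10. In the tight junction list, 1 of 14 fell, Cldn23, at 39.2, 27.7 and 20.9 FPKM with FDG decreased and 82.8, 54.3 and 31.5 FPKM with FDG increased. Cldn4, a sealing claudin, was at 72.2, 11.8 and 26.7 FPKM with FDG decreased and 98.7, 48.5 and 107 FPKM with FDG increased, lower in each pair, and did not pass.

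**Figure D4:**
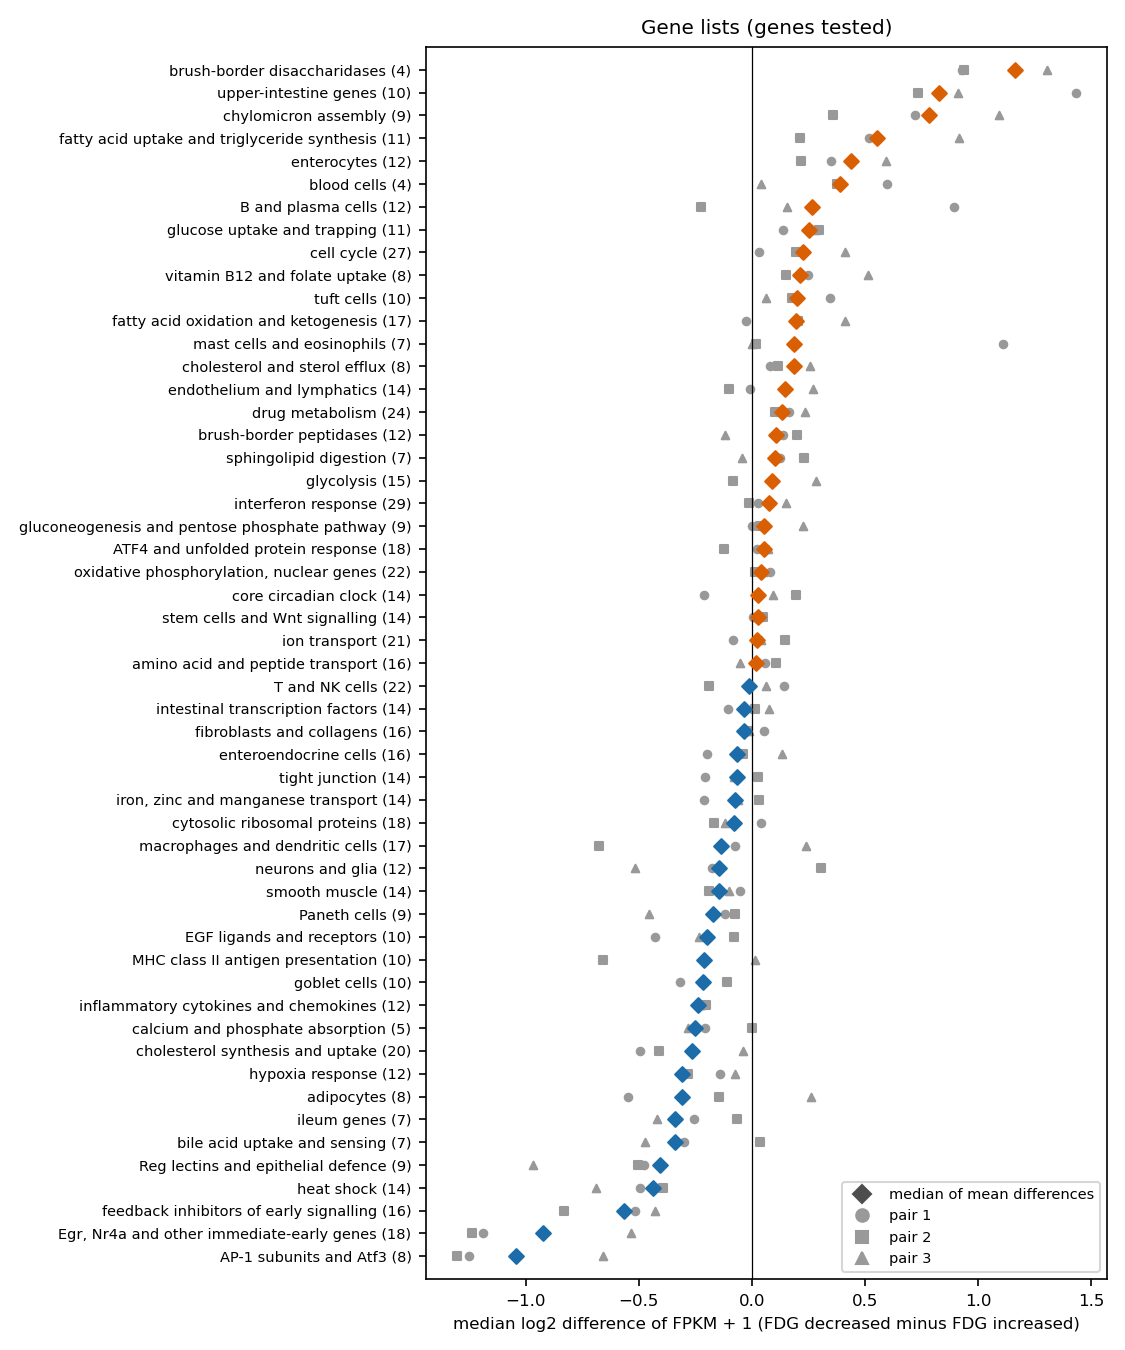
Median log2 difference of FPKM + 1, FDG decreased minus FDG increased, of each gene list with at least 4 genes tested (number in brackets); diamonds are medians of the mean differences and grey circles, squares and triangles those of pairs 1, 2 and 3. AP-1, Egr and Nr4a, feedback inhibitor and heat-shock lists lie lowest by their diamonds, from -1.04 to -0.44, and disaccharidase, upper-intestine and chylomicron lists highest, from 0.78 to 1.16.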

How the data were processed

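Ileal RNA of 6 bypass samples was compared, 3 per FDG group, from the FPKM values that the authors deposited. Per the labels' protocols, libraries were made from total RNA with a stranded kit after removal of ribosomal RNA. The submitters' processing notes name STAR 2.6.0a, bcl2fastq 1.8.4, DESeq2 1.24.0, Cufflinks 2.2.1 and Cuffdiff, and the human build hg19, although the genes carry rat symbols; the rat build is not given in the sources used here. FPKM divides by transcript length and library total, holds no read depth and lets a few abundant genes shift all others.

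Columns were matched to samples by title, and 0 columns of sample values were left unused, with the matching of libraries counted as a use. The FDG-increased columns that stand beside sham served only for that matching. The column among them that matched no library of this comparison gave no level and entered no test. Gene symbols damaged into dates were dropped. limma 3.58.1 in R 4.3.3 was fitted to log2(FPKM + 1) of genes averaging 1 FPKM or more, with the replicate number as a block and with robust variances that follow an intensity trend. Benjamini-Hochberg adjustment ran over all genes tested, with a threshold of 0.05. The labels do not say what a replicate number shares. Deviations from the group means correlated across genes at 0.85, 0.76 and 0.77 between same-numbered libraries, so the numbers were taken to pair the libraries. Between libraries of other numbers and the other group the values were -0.13 to -0.59. Deviations sum to 0 within a group, so negative values there follow from the positive ones and add no evidence. On simulated data the fit recovered most known changes and also called unchanged genes beyond the nominal share.

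Named are the 15 called genes with the largest mean difference per direction, and from each list up to 4 members with the largest difference plus every called member; list members with small differences and further called genes were named after their values were seen. Some genes that this rule names, 1 of the 15 largest falls among them, are not reported here. The members and lists were chosen with earlier results of these data known. Lists were described by counts and medians, with no test. Sham levels come from a second deposited FPKM table, scaled separately, whose FDG-increased columns were used only to match libraries. Promoters are RefSeq's for GRCr8, which is not the files' build, matched by symbol, and motifs were searched with Python 3.11.15. The 11 alternatives concerned the block, pseudocount, filter, scaling, variance model, lane and each pair left out.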

Additional observations from a re-analysis of the deposited data

How the results depend on the processing

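The count of 122 called genes was 0 without the replicate block, 0 with sequencing lane as the block, 32 with no filter on low values, 72 with no intensity trend and no robust variances, and 39 to 370 with 1 pair left out. It stayed within 1.5 times of 122 with a pseudocount of 0.1 (123), a minimum of 5 FPKM (138), libraries shifted to the same median (101) and quantile normalization (90). The 1022 genes at an unadjusted p under 0.05 became 110 without the block, 152 with lane as the block, and 678 to 1360 with 1 pair left out. The lane block splits pair 3, whose FDG-increased library is then set against the FDG-decreased library of pair 2. The 38 genes that differed by at least 1 in every pair became 51 to 92 with 1 pair left out, where a gene has fewer pairs to meet. The cause of the other changes was not tested. Of 119 named genes called, 0 stayed called without the block or with lane as the block, 29 with no filter, 66 with no trend, 84 with quantile normalization, 94 with libraries shifted to the same median, 116 with a pseudocount of 0.1, and 28, 112 and 118 without pairs 1, 2 and 3. None of these 119 reversed its direction in the alternatives that gave it a value; a minimum of 5 FPKM gave one for 110 of them. Of the medians of 55 lists, 30 kept their sign over 10 alternatives. Of the 15 largest falls, 11 stayed called with no filter and 11, 10 and 15 without pairs 1, 2 and 3; of the 15 largest rises, 10 with no filter and 10, 14 and 15 without those pairs. The FPKM files give no read depth, so no counting error or lower limit of detection can be stated, and 3 pairs limit the precision of every difference.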

Other observations

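Cell cycle genes, not described above, leaned upwards in FDG-decreased ileum without a call. Of 27 tested, 25 had a mean above 0, where 55.2% of all genes had. In all 3 pairs 13 were higher, where 17.2% of all genes were. Limma with Benjamini-Hochberg adjustment called 0. At an unadjusted p under 0.05, 4 were higher and 0 lower, where 4.81% and 4.7% of all genes were. The list medians of pairs 1 to 3 were 0.03, 0.20 and 0.41, and Mcm6, a subunit of the replication helicase, stood at 16.7, 14.9 and 22.7 FPKM with FDG decreased and 14.0, 14.2 and 12.3 FPKM with FDG increased. Stem cell and Wnt genes had a median of 0.03, the nuclear genes of oxidative phosphorylation 0.04, the circadian clock 0.03 and cytosolic ribosomal proteins -0.08, each with 0 called. Vip, a peptide of enteric neurons, rose by 0.93, at 22.5, 24.9 and 42.7 FPKM with FDG decreased and 8.08, 12.6 and 30.2 FPKM with FDG increased, while the neuron and glia list had a median of -0.14 and Tac1, another neuronal peptide, a difference of -0.60. Prdm1, a factor of the fetal gut and of plasma cells, fell by 0.96, at 6.02, 5.99 and 2.40 FPKM with FDG decreased and 10.5, 17.5 and 4.80 FPKM with FDG increased.

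Immune lists differed between pairs in sign or size. B and plasma cell markers had medians of 0.89, -0.22 and 0.16 in pairs 1 to 3, mast cell and eosinophil markers 1.11, 0.02 and 0.00, macrophage and dendritic cell markers -0.08, -0.67 and 0.24 and MHC class II genes -0.21, -0.66 and 0.01. Cr2, a receptor of follicular B cells, stood at 5.84, 0.318 and 0.0464 FPKM with FDG decreased and 0.0519, 0.393 and 0 FPKM with FDG increased, with FDG-decreased library 1 apart from the rest.

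Some genes had large differences in 1 or 2 pairs and much smaller or opposite ones in another; they were picked after their values were seen. Hoxb9 and Hoxb7, homeobox factors of posterior body segments, are examples. Hoxb9 stood at 0.477, 2.01 and 0.0740 FPKM with FDG decreased and 34.8, 31.9 and 0.608 FPKM with FDG increased. Hoxb7 stood at 1.13, 1.21 and 1.10 FPKM with FDG decreased and 17.2, 24.2 and 0.596 FPKM with FDG increased. Both were high only in FDG-increased libraries 1 and 2 among these 6 libraries, and sham library 3 held 9.83 and 4.27 FPKM. Hoxc8 did not follow them, with pair differences of 0.28, -0.06 and 0.12. Mptx, a pentraxin of mucus, stood at 95.8, 47.9 and 62.3 FPKM with FDG decreased and 41.0, 42.3 and 534 FPKM with FDG increased. Its FDG-increased library 3 lay far above the other 5.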
